A study of Mus musculus with 20 samples.

Results

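A set of 10 imprinted genes that control growth was followed across structures grown from mouse embryonic stem cells: Igf2, H19, Grb10, Cdkn1c, Phlda2, Dlk1, Meg3, Peg3, Peg10 and Mest. They were chosen by name, and each matched 1 gene identifier, so that 10 of the 54446 gene identifiers in the deposited tables are described. Bulk RNA was sequenced from 15 libraries in 5 groups of 3. Every group came from 1 stem cell line, F1G4, which carried the double reporter T::H2B-mCherry/Sox2::H2B-Venus. The stem cells were kept on feeder cells and freed of them before aggregation, per the labels' protocols. All aggregates received a pulse of 3 µM CHIR99021, an activator of WNT signalling, after 48 h. The 96h group was collected at 96 h as precursors of trunk-like structures, 10 pooled per library. The other groups were collected at 120 h, 6 structures pooled per library. Gastruloid was grown without Matrigel by the Beccari protocol. TLSMG was grown in Matrigel, which is an extract of basement membrane, TLSMGC in Matrigel with further CHIR, and TLSMGCL in Matrigel with CHIR and LDN, an inhibitor of BMP receptors. The labels call the 3 libraries of a group biological replicates, and the structures were picked for an asymmetric pole, so the values describe pools of picked structures of 1 line. The 5 single-cell samples among the 20 samples of the series were not analysed here.

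Imprinted genes are transcribed mainly from the copy inherited from one parent, which is set by DNA methylation laid down in the germline. In the mouse embryo, many genes expressed from the paternal copy promote growth, among them Igf2, Dlk1, Peg3, Peg10 and Mest. Several expressed from the maternal copy restrain it, among them H19, Grb10, Cdkn1c and Phlda2. The tables give 1 level per gene and hold no information on the parental copy, so imprinting itself was not measured.

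The tissue labels were compared with marker genes. Summed somite markers stood at 520.2 to 1028 TPM (a transcript level corrected for length and scaled to 1 library total) over the 15 libraries. In 96h this sum came mainly from Meox1 and Tcf15 (means of 393 and 199 TPM). No somite or neural tube marker was at 0 throughout a group, but some were near it. Pax9 and Pax1 had means of 0.0222 and 0.0362 TPM in 96h, and Olig2 0.0372 in TLSMGC. Pluripotency markers were also present, at 33.2 to 349.7 TPM summed over 5 genes. Many of the 10 imprinted genes are abundant in trophoblast and yolk sac. The sum of 6 trophoblast markers was 0 to 10.7 TPM, the highest being 96h replicate 1 through Hand1 (9.75 TPM), which also marks lateral plate. Elf5 reached 2.06 TPM and Plac1 1.35, while Prl3d1 and Tpbpa were listed at 0 in all 15 libraries. The sum of 5 yolk sac markers was 0 to 1.04 TPM, with Afp at 0 throughout. Depth, taken as the coverage that 1 FPKM is worth, ran from 3.12 to 6.84 between libraries, and 13688 to 14494 genes reached 1 TPM.

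Promoter stretches are shown for Mest and Peg3, whose levels spanned the widest ranges among the 10 genes and whose promoters are known to be methylated on the maternal copy, and for Meg3, whose promoter is known to be methylated on the paternal copy. RefSeq windows on GRCm38.p6, which run from 250 bases before to 50 after a start, were found for 7 of the 10 genes, 14 windows in all. Capitals mark matches on either strand to TGCCGC, the core of the site bound by ZFP57, a zinc finger protein that keeps imprints methylated, and to GGCGCC, a GC-rich element bound by SMAD proteins. The matches do not overlap each other. Printed is the part of each window before the start that no GENCODE exon covers, at chr6:30737800-30738049 (Mest, plus strand), chr7:6730432-6730577 (Peg3, minus strand) and chr12:109540746-109540995 (Meg3, plus strand), each 5′ to 3′.
Mest: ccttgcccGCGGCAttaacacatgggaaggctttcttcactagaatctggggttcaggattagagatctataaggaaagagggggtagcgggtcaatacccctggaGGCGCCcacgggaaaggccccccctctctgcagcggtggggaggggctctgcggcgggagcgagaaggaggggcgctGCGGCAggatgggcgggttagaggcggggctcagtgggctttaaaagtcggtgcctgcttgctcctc
Peg3: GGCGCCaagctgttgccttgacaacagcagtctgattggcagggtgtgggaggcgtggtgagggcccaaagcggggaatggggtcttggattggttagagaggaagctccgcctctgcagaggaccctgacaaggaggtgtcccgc
Meg3: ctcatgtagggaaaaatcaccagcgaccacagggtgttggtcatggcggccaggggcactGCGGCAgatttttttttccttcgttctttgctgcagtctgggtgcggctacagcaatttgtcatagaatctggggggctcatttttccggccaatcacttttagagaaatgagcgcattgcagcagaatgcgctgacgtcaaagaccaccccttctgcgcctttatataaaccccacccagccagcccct
The stretch for Mest holds 2 matches to TGCCGC and 1 to GGCGCC, that for Peg3 holds 1 to GGCGCC, and that for Meg3 holds 1 to TGCCGC. Among 32851 windows of 300 bases, 11.6% hold TGCCGC and 11.9% hold GGCGCC. Of the 14 windows of these genes, which overlap in part, 5 hold the first and 4 the second. Both counts include a pair of Mest windows that overlap almost wholly. Both motifs are rich in GC. GC content was 49.7% to 80% in the windows of these genes, beside a median of 52.7% over all windows. The counts were not tested against windows of like GC content. A match is a run of letters and does not show binding.

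Coordinates below are those of the deposited tables on mouse build mm10 (GRCm38). All 10 genes passed the expression filter, a mean of at least 1 TPM over the 15 libraries, although H19 did so at a mean of 1.35 TPM. Differences were tested with limma on log2(TPM + 1), with Benjamini-Hochberg adjustment over the 14290 genes tested and a threshold of 0.05. Among the 5 groups, 9 of the 10 genes differed, Igf2 being the exception, against 73.5% of all genes tested. From 96h to Gastruloid, 7 genes rose and 1 fell, so that 8 of 10 passed. Of all genes tested, 20.8% rose and 20.5% fell, 41.2% in all. From 96h to TLSMG, 8 rose and 1 fell, so that 9 of 10 passed, against 33.5% and 12.5% of all genes, 46.0% in all. From 96h to TLSMGC, 4 rose and 3 fell, so that 7 of 10 passed, against 20.6% and 20.1% of all genes, 40.7% in all. TLSMG exceeded Gastruloid for 6 of 10 genes, against 31.5% of all genes, and was below it for 0, against 7.87% (39.3% in all; limma, 6 and 1 at an unadjusted p under 0.05). TLSMGC was below TLSMG for 8 genes and above it for 1, against 30.5% and 10.4% of all genes, 40.9% in all. With LDN on top of CHIR, 2 of 10 were lower and 0 higher, against 0.777% and 0.406% of all genes (limma, 5 and 0 at an unadjusted p under 0.05), or 1.18% in either direction. Comparisons with a common group share its libraries, so these counts are not independent of each other.

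The median difference over all genes was 0.143 on the log2(TPM + 1) scale between TLSMG and 96h, 0.134 between TLSMG and Gastruloid, and -0.157 between TLSMGC and TLSMG. Scaling by the median of gene ratios brought these to -0.0119, -0.0191 and -0.0107, and the calls over all genes from 4792 higher and 1785 lower to 3194 and 3299, from 4497 and 1125 to 2763 and 2594, and from 1490 and 4352 to 2621 and 2685. The median over the 10 genes was 1.62, 0.61 and -1.12 in the same order, and 1.44, 0.44 and -0.99 after that scaling. Their calls after it were 8 higher and 1 lower, 6 and 1, and 1 and 7.

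**Figure D1:**
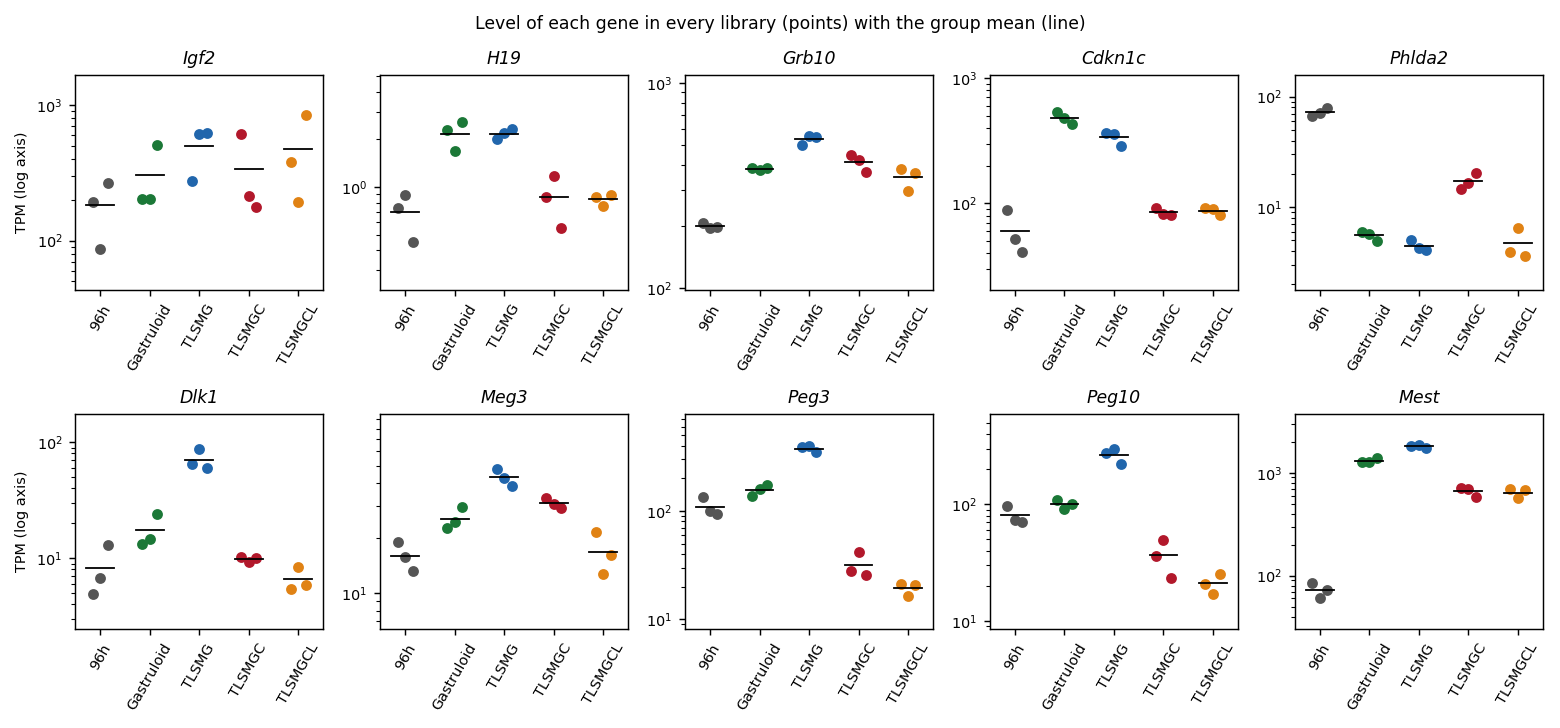
TPM on log axes for each of the 10 genes, 1 panel per gene, with 3 libraries (points) and their mean (line) in each of the 5 groups. Peg3, Peg10 and Dlk1 peaked in TLSMG, Mest and Cdkn1c were high in Gastruloid and TLSMG, Phlda2 was highest in 96h, and Igf2 spread widely within every group.

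**Figure D2:**
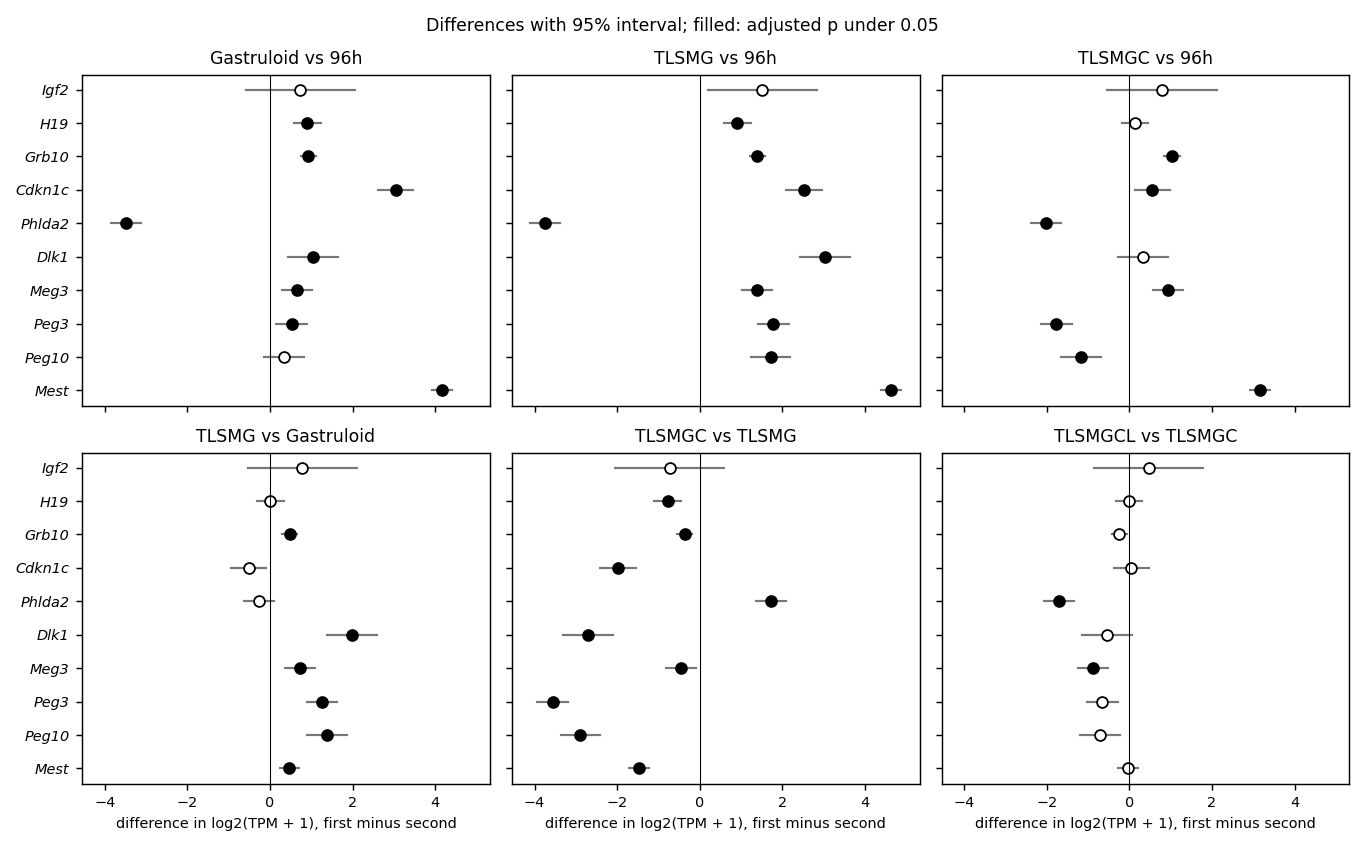
Difference in log2(TPM + 1) for each gene in the 6 comparisons, with its 95% confidence interval from limma. Filled points passed an adjusted p of 0.05, which 9 of 10 genes did between TLSMGC and TLSMG and 2 of 10 between TLSMGCL and TLSMGC.

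Peg3 (ENSMUSG00000002265.16, chr7:6703892-6730431, minus strand) encodes a large zinc finger protein known for effects on growth and maternal behaviour, and it showed the steepest fall with CHIR of the 10 genes. Its levels were 135, 100.2 and 93.9 TPM in the 96h libraries (replicates 1, 2 and 3), 137, 158 and 175 in Gastruloid, and 387, 393 and 347 in TLSMG. In TLSMGC they were 28.0, 41.5 and 25.4 TPM, and in TLSMGCL 20.97, 16.4 and 20.8. No 2 groups overlapped, and the order from high to low was TLSMG, Gastruloid, 96h, TLSMGC and TLSMGCL. Between TLSMG and 96h the mean was 3.43-fold higher, a log2 difference of 1.78 ± 0.17 (SE, adjusted p = 2.33e-06). In TLSMGC the mean was 11.9-fold lower than in TLSMG, a difference of -3.56 ± 0.17 (adjusted p = 6.48e-09). It was also 3.47-fold below the 96h mean (-1.78 ± 0.17, adjusted p = 3.12e-06). The rise from 96h to Gastruloid was 1.43-fold (0.52 ± 0.17, adjusted p = 0.0274). That call was lost without 96h replicate 2 or 3, without Gastruloid replicate 2 or 3, or with no filter on low values (adjusted p = 0.0622 to 0.106). The step from TLSMGC to TLSMGCL, -0.65 ± 0.17, did not pass (adjusted p = 0.0969) although the libraries of the groups did not overlap.

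Peg10 (ENSMUSG00000092035.8, chr6:4747306-4760517, plus strand), a gene derived from a retrotransposon and needed for the placenta, ran almost parallel to Peg3. It stood at 97.5, 73.2 and 69.8 TPM in 96h, at 109, 91.9 and 101 in Gastruloid and at 275, 299 and 222 in TLSMG. TLSMGC libraries held 35.7, 49.8 and 23.5 TPM, and TLSMGCL libraries 20.8, 17.0 and 25.1. TLSMG was above all other groups, 96h overlapped with Gastruloid, and TLSMGC and TLSMGCL overlapped with each other below the rest. The mean rose 3.31-fold from 96h to TLSMG (1.72 ± 0.22, adjusted p = 3.25e-05) and was 7.31-fold lower in TLSMGC than in TLSMG (-2.89 ± 0.22, adjusted p = 4.77e-07). TLSMGC was 2.21-fold below 96h (-1.17 ± 0.22, adjusted p = 0.000905). Gastruloid did not pass against 96h (0.33 ± 0.22, adjusted p = 0.247). Under LDN the difference of -0.72 ± 0.22 did not pass (adjusted p = 0.161), but it did without TLSMGC replicate 3 (-0.99, adjusted p = 0.0241).

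Over the 15 libraries, Pearson's r between Peg3 and Peg10 on the log2(TPM + 1) scale was 0.986. These points share libraries, groups and scaling, and r is a description. By the same measure, the 3 tested genes most like Peg3 were Peg10, Vasp (0.983), a regulator of actin filaments, and Ankrd6 (0.981). Those most like Peg10 were Peg3, Crim1 (0.984) and Adamts9 (0.980), a secreted metalloprotease.

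Mest (ENSMUSG00000051855.15, chr6:30723547-30748465, plus strand), whose protein resembles hydrolase enzymes and which is known for expression in mesoderm, had the highest mean TPM of the 10 genes in each 120 h group, although Igf2 exceeded it in TLSMGCL replicate 3. It stood at 84.7, 60.8 and 72.0 TPM in 96h, at 1272, 1258 and 1386 in Gastruloid and at 1825, 1869 and 1739 in TLSMG. With CHIR the libraries held 704, 693 and 577 TPM, and with CHIR and LDN 691, 564 and 672. All 120 h libraries lay far above all 96h libraries, and only TLSMGC and TLSMGCL overlapped. The mean rose 18.0-fold from 96h to Gastruloid (4.16 ± 0.11, adjusted p = 1.79e-11) and 25.0-fold to TLSMG (4.64 ± 0.11, adjusted p = 1.00e-11). TLSMG exceeded Gastruloid 1.39-fold (0.47 ± 0.11, adjusted p = 0.00512). TLSMGC was 2.75-fold below TLSMG (-1.46 ± 0.11, adjusted p = 4.56e-07) and still 9.08-fold above 96h (3.17 ± 0.11, adjusted p = 2.53e-10). LDN left the difference at -0.04 with a 95% interval of -0.28 to 0.21. Its nearest genes were Samd10 (r = 0.982), Pon2 (0.981) and Rab3il1 (0.981). The 3′ end of Mest overlaps Copg2 on the other strand.

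Cdkn1c (ENSMUSG00000037664.13, chr7:143458339-143461050, minus strand) encodes a protein of the Cip/Kip family, an inhibitor of cyclin-dependent kinases that takes cells out of the cycle. It stood at 88.3, 51.9 and 41.1 TPM in 96h, at 533, 481 and 433 in Gastruloid and at 367, 359 and 289 in TLSMG. The TLSMGC libraries held 91.9, 82.2 and 80.6 TPM, and the TLSMGCL libraries 92.0, 89.8 and 80.7. Gastruloid and TLSMG formed a high group, and the others a low one in which the ranges overlapped. The mean was 7.98-fold higher in Gastruloid than in 96h (3.04 ± 0.20, adjusted p = 5.31e-08) and 5.59-fold higher in TLSMG (2.53 ± 0.20, adjusted p = 3.02e-07). It was 3.98-fold lower in TLSMGC than in TLSMG (-1.98 ± 0.20, adjusted p = 5.23e-06).

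A pair of Cdkn1c differences lay near the threshold. TLSMG against Gastruloid gave -0.51 ± 0.20 (adjusted p = 0.0553) with libraries that did not overlap, and passed with FPKM values (-0.69, adjusted p = 0.0170), median-of-ratios scaling (-0.69, adjusted p = 0.0216), depth-scaled coverage (-0.56, adjusted p = 0.0455), a fit of these groups alone (adjusted p = 0.0101) or a replicate block (adjusted p = 0.0170). TLSMGC against 96h gave 0.55 ± 0.20 (adjusted p = 0.0397) with ranges that overlapped. It failed without 96h replicate 2 or 3, without any 1 TLSMGC library, and under 3 other settings (adjusted p = 0.0516 to 0.186). The antisense gene Gm44732 lies within Cdkn1c and followed it, at 6.398 to 12.3 TPM in 96h, 37.1 to 62.1 in Gastruloid, 21.7 to 33.6 in TLSMG and 6.57 to 8.69 with CHIR. The libraries are stranded per the labels, but the strand setting of the counting is not given in the sources used here, so the levels of the overlapping genes may share reads.

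Summed neural tube markers, like Cdkn1c, were highest in Gastruloid and next in TLSMG, while the order of the 3 low groups differed. The sum of 6 markers was 233 to 327 TPM in Gastruloid and 142 to 218 in TLSMG, against 54.6 to 67.8 for 96h, 42.8 to 52.6 for TLSMGC and 50.4 to 58.8 for TLSMGCL. Not each marker followed this order, as mean Hes5 was lower in TLSMG (13.03 TPM) than in 96h (20.22). The order was also not particular to neural tube. Summed somite markers were likewise highest in Gastruloid (885 to 1028 TPM) and next in TLSMG (729 to 870). By group means Meox1, Tbx18, Pax1 and Pax9 had this order, but Tcf15, Uncx and Meox2 did not. Mean Tcf15 was lowest in TLSMG (154 TPM) and highest in TLSMGCL (365), where Uncx also peaked (35.9). Mean Meox2 was higher in TLSMG (30.9 TPM) than in Gastruloid (15.8). The part of these markers in the result was not tested. In bulk RNA, fewer cells of a type and less RNA per cell cannot be told apart. Replicate 1 of 96h, the highest of its group for Cdkn1c, Peg3 and Peg10, also had the highest sum of lateral plate and cardiac markers (46.7 TPM against 20.8 and 17.2). The same library was highest of its group for somite (719 TPM), endothelium (7.56), gut endoderm (96.2) and trophoblast (10.7) sums. It was lowest for neural tube (54.6), presomitic (559) and pluripotency (151) sums. The genes nearest to Cdkn1c in pattern were Fzd8 (r = 0.976), a WNT receptor, Sema3f (0.975) and Nedd9 (0.974).

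Phlda2 (ENSMUSG00000010760.5, chr7:143501545-143503150, minus strand) encodes a small protein with a pleckstrin homology domain that restrains placental growth. It was the 1 gene of the 10 that fell from 96h to TLSMG and was higher in TLSMGC than in TLSMG. Its levels were 66.4, 70.6 and 79.0 TPM in 96h, 5.91, 5.76 and 4.94 in Gastruloid and 5.03, 4.26 and 4.11 in TLSMG. In TLSMGC they were 14.5, 16.7 and 20.4 TPM, and in TLSMGCL 3.92, 6.53 and 3.59. The 96h libraries were far above all others, TLSMGC stood alone in second place, and the remaining 3 groups overlapped. Gastruloid differed from 96h by -3.48 ± 0.17 on the log2(TPM + 1) scale (adjusted p = 2.63e-09). From 96h the mean was 16.1-fold lower in TLSMG (-3.74 ± 0.17, adjusted p = 1.41e-09) and 4.19-fold lower in TLSMGC (-2.01 ± 0.17, adjusted p = 7.04e-07). In TLSMGC it was 3.85-fold higher than in TLSMG (1.73 ± 0.17, adjusted p = 3.95e-06). In TLSMGCL it was 3.67-fold lower than in TLSMGC (-1.70 ± 0.17, adjusted p = 0.000244), in a range that overlapped with Gastruloid and TLSMG. That fall passed under all 15 alternatives (-1.92 to -1.38, adjusted p at most 0.0353).

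Phlda2 and the sum of presomitic markers were both highest in 96h and second highest in TLSMGC. They parted in TLSMGCL, where the sum stayed above Gastruloid and TLSMG and Phlda2 did not. This did not hold for each marker. Mean Cyp26a1 was lower in TLSMGCL (1.73 TPM) than in Gastruloid (7.30) and TLSMG (5.10). Mean Msgn1 was 36.6 TPM in TLSMGC and 15.4 in TLSMGCL. The sum of 5 presomitic and tailbud markers was 559 to 841 TPM in 96h, 163 to 209.8 in TLSMGC, 138 to 155 in TLSMGCL, and 21.8 to 48.1 in Gastruloid and TLSMG. Their part in the result was not tested. Frzb (r = 0.973), a secreted WNT antagonist, Wnt8b (0.956) and Thy1 (0.955) were nearest to Phlda2 in pattern.

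Dlk1 (ENSMUSG00000040856.17, chr12:109452823-109463336, plus strand) encodes a transmembrane protein of the Notch ligand family without the canonical Notch-binding domain, and Meg3 (ENSMUSG00000021268.17, chr12:109541001-109571726, plus strand) is the maternally expressed long noncoding RNA of the same domain on chromosome 12. Dlk1 stood at 4.92, 6.77 and 12.9 TPM in 96h, at 13.2, 14.6 and 24.2 in Gastruloid and at 64.7, 87.8 and 59.6 in TLSMG. The TLSMGC libraries held 10.2, 9.33 and 9.97 TPM, and the TLSMGCL libraries 5.43, 8.38 and 5.89. TLSMG was above every other library, and 96h overlapped with both CHIR groups. The mean rose 2.11-fold from 96h to Gastruloid (1.04 ± 0.28, adjusted p = 0.00931) and 8.62-fold to TLSMG (3.04 ± 0.28, adjusted p = 1.46e-06), and TLSMG exceeded Gastruloid 4.08-fold (1.99 ± 0.28, adjusted p = 0.000262). TLSMGC was 7.19-fold below TLSMG (-2.71 ± 0.28, adjusted p = 6.83e-06). TLSMGC against 96h gave 0.33 ± 0.28 and did not pass (adjusted p = 0.382), but passed without 96h replicate 3 (0.67, adjusted p = 0.0473) and with depth-scaled coverage (0.42, adjusted p = 0.00877). The LDN difference was -0.54 ± 0.28 (adjusted p = 0.459). Npr1, a natriuretic peptide receptor, Tmem255a and Nova2 were nearest to Dlk1 in pattern (r = 0.975, 0.960 and 0.957).

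Meg3 also peaked in TLSMG, and its rise to that group was smaller than that of Dlk1. It stood at 18.96, 15.8 and 13.2 TPM in 96h, at 22.6, 24.6 and 29.6 in Gastruloid and at 48.3, 42.8 and 38.6 in TLSMG. CHIR libraries held 33.1, 30.7 and 29.4 TPM, and those with LDN 21.6, 12.7 and 16.2. TLSMG was highest without overlap, TLSMGC overlapped with Gastruloid, and TLSMGCL overlapped with 96h. Against 96h the mean was 1.60-fold higher in Gastruloid (0.65 ± 0.17, adjusted p = 0.00717) and 1.94-fold higher in TLSMGC (0.93 ± 0.17, adjusted p = 0.000642), and TLSMG differed from 96h by 1.39 ± 0.17 on the log2(TPM + 1) scale (adjusted p = 1.83e-05). TLSMG exceeded Gastruloid by 0.74 ± 0.17 (adjusted p = 0.00409), which a correction for GC content and length reduced to 0.22 (adjusted p = 0.267). Usp1 (r = 0.934) and Rala (0.932) were among the genes nearest to Meg3 in pattern.

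The Meg3 differences with added CHIR and with LDN were close to the threshold. TLSMGC against TLSMG gave -0.46 ± 0.17 (adjusted p = 0.0423). It failed without TLSMG replicate 1 or 2 or any 1 TLSMGC library and under 3 other settings (adjusted p = 0.0570 to 0.152), and was 0.0085 after correction for GC content and length. LDN on top of CHIR gave a 1.84-fold lower mean (-0.87 ± 0.17, adjusted p = 0.0251). It failed without TLSMGC replicate 1 or 2, without TLSMGCL replicate 2 or 3, in a fit of these groups alone, with depth-scaled coverage (-0.32) or with no filter on low values (adjusted p = 0.0587 to 0.163). Meg3 over Dlk1, as a ratio of TPM, was 0.488 to 0.746 in TLSMG, 1.22 to 1.71 in Gastruloid, 1.02 to 3.85 in 96h, 2.95 to 3.29 in TLSMGC and 1.51 to 3.99 in TLSMGCL. TLSMG was thus the only group of the 5 with more Dlk1 than Meg3 in every library.

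**Figure D3:**
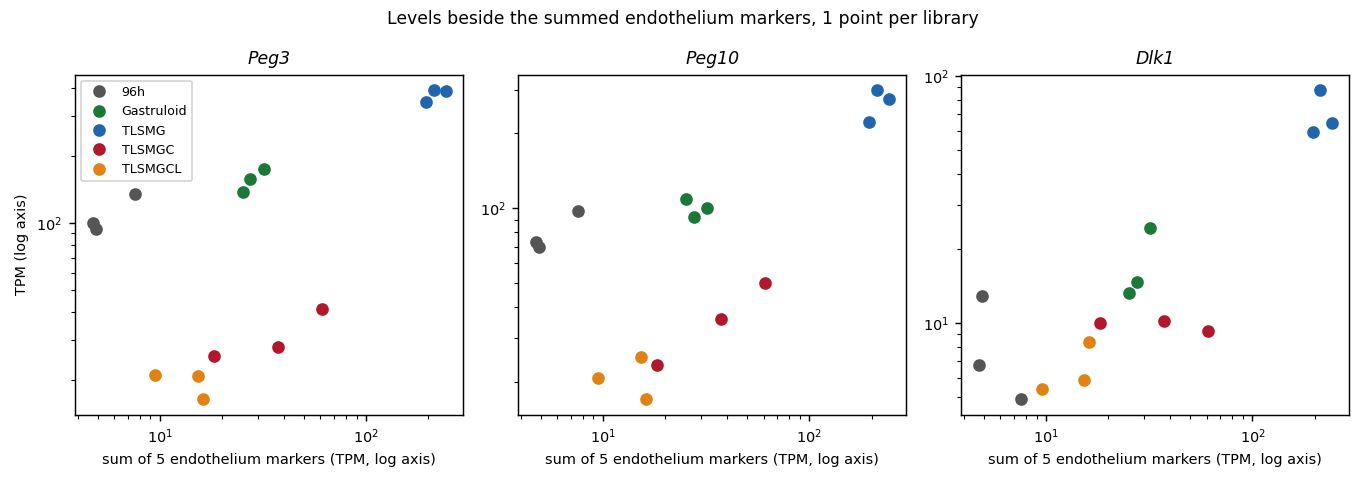
TPM of Peg3, Peg10 and Dlk1 against the summed TPM of 5 endothelium markers, both on log axes, 1 point per library, coloured by group. TLSMG is highest on both axes, whereas 96h libraries have little endothelial signal and more Peg3 and Peg10 than TLSMGC libraries.

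Endothelial markers were high in the group where these 3 genes peaked. Summed over Kdr, Cdh5, Pecam1, Tie1 and Cldn5, they stood at 195 to 242 TPM in TLSMG, 25.4 to 32.0 in Gastruloid, 18.3 to 60.9 in TLSMGC, 9.51 to 16.2 in TLSMGCL and 4.73 to 7.56 in 96h. Within TLSMGC the sum was 37.4, 60.9 and 18.3 TPM in replicates 1 to 3, and replicate 2 was also the highest and replicate 3 the lowest for Peg3 and Peg10. Replicate 2 was the lowest of these libraries for Dlk1. Other groups were mixed. In TLSMGCL, replicate 2 had the highest sum (16.2 TPM) but the lowest Peg3 and Peg10 (16.4 and 17.0). In Gastruloid, replicate 1 had the lowest sum (25.4 TPM), with the highest Peg10 (109) and the lowest Peg3 (137). The part of these markers in the result was not tested.

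Igf2, a secreted growth factor, and H19, a noncoding RNA that shares enhancers with it, are neighbours on chromosome 7, Igf2 (ENSMUSG00000048583.16) at chr7:142650766-142666816 and H19 (ENSMUSG00000000031.16) at chr7:142575529-142578143, both on the minus strand. Igf2 stood at 194, 86.9 and 265 TPM in 96h, at 203, 202 and 505 in Gastruloid and at 277, 612 and 622 in TLSMG. The TLSMGC libraries held 618, 212 and 178 TPM, and the TLSMGCL libraries 383, 193 and 844. Every group overlapped with its neighbour in the order of means. Igf2 did not pass in any of the 6 comparisons, nor among the 5 groups (adjusted p = 0.215). Its largest difference was TLSMG against 96h, 1.51 ± 0.61 with a 95% interval of 0.19 to 2.83 (adjusted p = 0.0586). This passed without 96h replicate 3 (1.85, adjusted p = 0.0447), without TLSMG replicate 1 (1.90, adjusted p = 0.0383), in a fit of these groups alone (adjusted p = 0.0324) and with a replicate block (adjusted p = 0.0437). The intervals are wide, so the test bounds the other differences of Igf2 only loosely, for example at -2.04 to 0.60 for TLSMGC against TLSMG.

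The spread of Igf2 between libraries of a group was large for its level. Its residual SD was 0.869 on the log2(TPM + 1) scale, the ninth highest among 1710 genes with a mean of at least 100 TPM, whose median was 0.0884. The highest library exceeded the lowest of its group 2.25-fold to 4.38-fold. Among the other 9 genes this ratio ran from 1.03 to 2.62. Gm49394, an annotated protein-coding model on the same strand that shares exons with Igf2, was listed at 110.6 TPM in 96h replicate 3, 283 in TLSMGC replicate 1, 27.4 in Gastruloid replicate 3, 18.8 in TLSMGCL replicate 1 and 9.62 in 96h replicate 1. In the other 10 libraries it was at most 0.203 TPM. Reads in the shared exons cannot be assigned to either model with certainty, so both levels are uncertain. Summed with Gm49394, Igf2 still differed 2.25-fold to 5.07-fold within groups, and its depth-scaled coverage, the deposited coverage divided by the depth factor of the library, differed 2.39-fold to 5.35-fold. The antisense gene Igf2os kept to 12.4 to 20.4 TPM. Cactin, Cwc25 and Zfp644 were nearest to Igf2 in pattern (r = 0.893, 0.860 and 0.831).

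**Figure D4:**
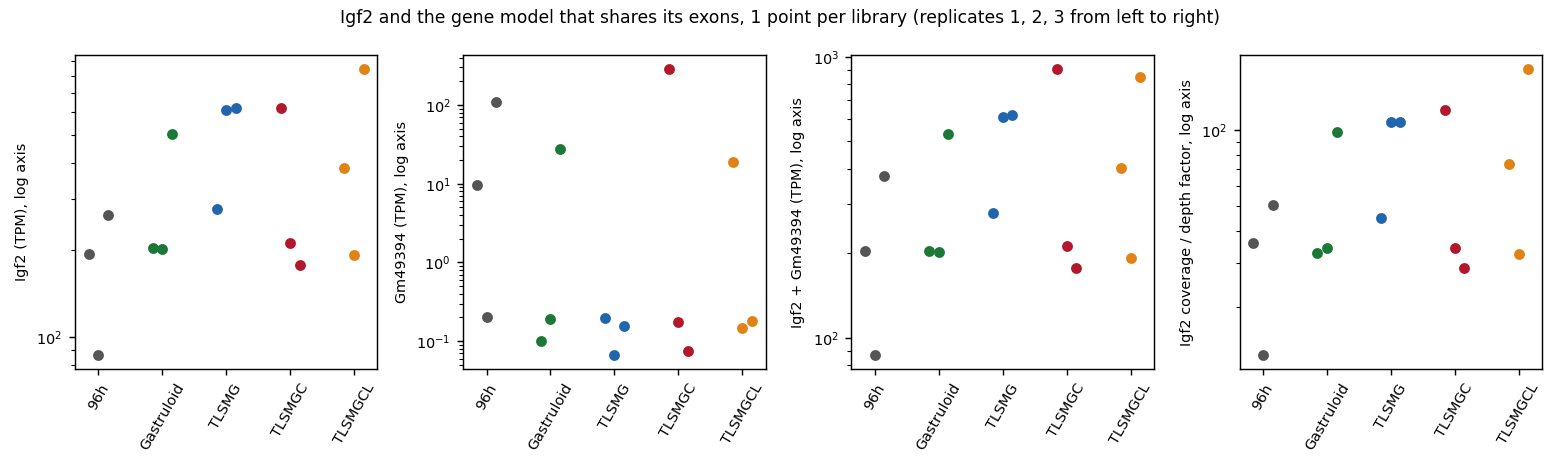
Igf2, Gm49394, their sum (TPM) and the depth-scaled coverage of Igf2 in each library by group, on log axes, replicates 1 to 3 from left to right. The 3 libraries of a group are 2.25-fold to 4.38-fold apart for Igf2, and Gm49394 is at 1 TPM or more in 5 of the 15.

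H19 had the lowest level of the 10 genes. It stood at 0.743, 0.895 and 0.452 TPM in 96h, at 2.29, 1.68 and 2.57 in Gastruloid and at 2.00, 2.19 and 2.33 in TLSMG. TLSMGC libraries held 0.861, 1.18 and 0.555 TPM, and TLSMGCL libraries 0.866, 0.757 and 0.889. Gastruloid and TLSMG overlapped with each other and lay above the rest, which also overlapped. H19 rose 3.13-fold in Gastruloid (0.90 ± 0.15, adjusted p = 0.000306) and 3.12-fold in TLSMG (0.91 ± 0.15, adjusted p = 0.000249), and was 2.51-fold lower in TLSMGC than in TLSMG (-0.78 ± 0.15, adjusted p = 0.00106). At these levels the log2(TPM + 1) scale understates the fold. Igf2 exceeded H19 in TPM by 88.7-fold to 949.9-fold. Over libraries H19 was most like Homer3 (r = 0.970), Spon1 (0.954) and Ctdspl (0.953), and among the 10 genes most like Cdkn1c (0.925).

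Grb10 (ENSMUSG00000020176.17, chr11:11930508-12038683, minus strand), an adaptor protein that dampens insulin and IGF receptor signalling, varied least within groups among the 10 genes, with a residual SD of 0.110. It stood at 208, 196 and 197 TPM in 96h, at 386, 374 and 384 in Gastruloid and at 499, 550.3 and 542 in TLSMG. The TLSMGC libraries held 445, 421 and 369.7 TPM, and the TLSMGCL libraries 379, 299 and 364. TLSMG was above and 96h below all other groups, which overlapped. From 96h the mean rose 1.90-fold in Gastruloid (0.92 ± 0.09, adjusted p = 1.56e-06), 2.64-fold in TLSMG (1.40 ± 0.09, adjusted p = 2.42e-08) and 2.05-fold in TLSMGC (1.03 ± 0.09, adjusted p = 6.14e-07). TLSMGC was 1.29-fold below TLSMG (-0.37 ± 0.09, adjusted p = 0.00376), a step that fell to -0.0853 after correction for GC content and length (adjusted p = 0.169). LDN gave -0.25 ± 0.09 (adjusted p = 0.212). Lrrc8b (r = 0.981), Rnf145 (0.979) and Cdon (0.977), a receptor component of hedgehog signalling, were nearest in pattern, and among the 10 genes Mest was (0.944).

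**Figure D5:**
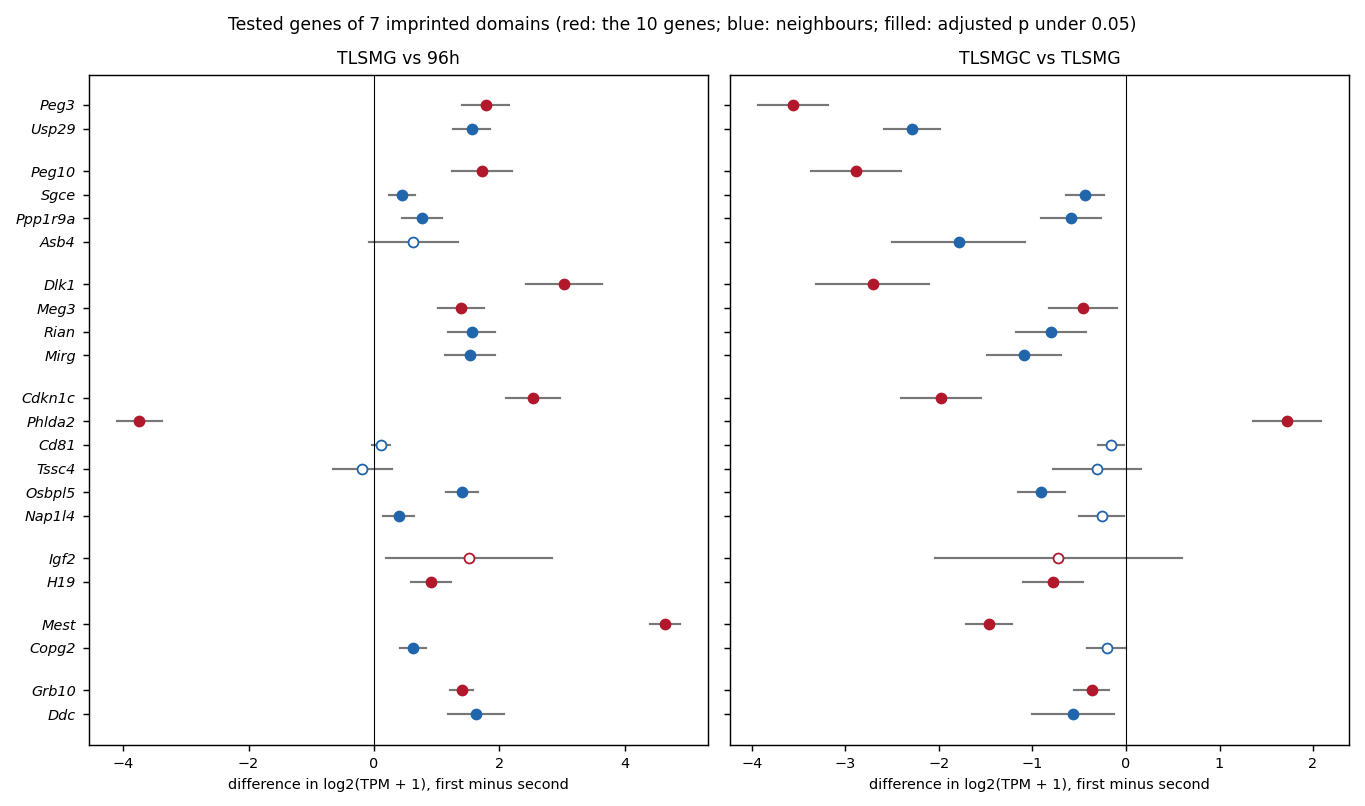
Difference in log2(TPM + 1) with 95% confidence interval for the tested genes of 7 imprinted domains, TLSMG against 96h (left) and TLSMGC against TLSMG (right). Red marks the 10 genes and blue their neighbours, and filled points passed an adjusted p of 0.05. All 4 tested genes of the domain of Dlk1 were higher in TLSMG than in 96h (33.5% of all genes were). All 4 were lower in TLSMGC than in TLSMG (30.5% of all genes were). Cdkn1c and Phlda2 differed in opposite directions in both panels.

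Neighbours in the same imprinted domains were then compared. These counts include the genes of the 10 counted above. They were not repeated after median-of-ratios scaling, under which 18.8% of all genes were lower in TLSMGC than in TLSMG. In the domain of Dlk1 and Meg3, the noncoding RNAs Rian and Mirg were tested too. All 4 were higher in TLSMG than in 96h, against 33.5% of all genes. All 4 were lower in TLSMGC than in TLSMG, against 30.5% of all genes, although Meg3 was close to the threshold there. After correction for GC content and length that Meg3 difference was 0.0085. Rian went from 78.6 ± 10.3 TPM (SD, n = 3) in 96h to 232 ± 5.97 in TLSMG and 133 ± 15.8 in TLSMGC. Usp29, which is transcribed away from the Peg3 promoter, stood at 5.92 ± 1.57 TPM in 96h, 19.1 ± 1.3 in TLSMG and 3.12 ± 0.45 in TLSMGC, and its difference between the last 2 groups was -2.29 (adjusted p = 6.11e-08). Around Peg10, all 4 tested genes were lower in TLSMGC than in TLSMG, against 30.5% of all genes. Asb4 went from 4.90 ± 1.45 TPM in TLSMG to 0.733 ± 0.549 in TLSMGC (-1.79, adjusted p = 0.000777), and Ppp1r9a differed by -0.59 (adjusted p = 0.00667). Sgce, a sarcoglycan whose promoter adjoins that of Peg10, had the smallest difference of the 4 (-0.44, adjusted p = 0.00239), with 14.6 ± 1.1 TPM in 96h, 20.3 ± 1.2 in TLSMG and 14.7 ± 1.2 in TLSMGC. Of 6 tested genes around Kcnq1ot1, Cdkn1c, Osbpl5 and Phlda2 passed between TLSMGC and TLSMG, with differences of -1.98, -0.91 and 1.73, and this share is near the 40.9% of all genes that passed. Kcnq1ot1 itself, the noncoding RNA that silences this domain on the paternal copy, was below the filter at group means of 0.110 to 0.231 TPM.

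Other imprinted genes numbered 50 in the list, of which 33 were tested. The list includes neighbours counted above, such as Mirg, Usp29 and Asb4, so these counts overlap with those of the domains. From 96h to TLSMG, 19 rose and 3 fell, against 33.5% and 12.5% of all genes. In TLSMGC against TLSMG, 22 were lower and 1 higher, against 30.5% and 10.4%. After median-of-ratios scaling 15 rose and 4 fell in the first comparison, against 22.4% and 23.1% of all genes. In the second, 18 were lower and 3 higher, against 18.8% and 18.3%. Plagl1, a zinc finger regulator of other imprinted genes, stood at 2.63 ± 1.10 TPM in 96h (SD, n = 3), 22.8 ± 1.3 in Gastruloid, 37.5 ± 5.0 in TLSMG and 7.51 ± 1.56 in TLSMGC. Nnat, a neuronal membrane protein, was the 1 gene of this list that passed under LDN, and it was higher there, at 75.0 ± 4.3 TPM against 38.6 ± 12.2 (0.98, adjusted p = 0.0133). Of all genes, 0.406% were higher and 0.777% lower under LDN. After median-of-ratios scaling 2 of the 33 were higher and 0 lower, against 0.721% and 0.693% of all genes. With FPKM 2 were higher and 1 lower, against 0.686% and 0.847%. The median difference over the 33 genes from TLSMG to TLSMGC was -0.44, beside -0.16 over all genes.

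Genes of IGF and insulin signalling were tested for 17 of 18 listed, and Igf2r among them is also in the list of other imprinted genes. Between TLSMGC and TLSMG, 16 were lower and 0 higher by limma's adjusted p (17 and 0 unadjusted), against 30.5% and 10.4% of all genes, with a median of -0.51. After median-of-ratios scaling 11 were lower, against 18.8% of all genes. TLSMG exceeded Gastruloid for 13 of the 17, against 31.5% of all genes, or for 8 after that scaling, against 19.3%. With LDN, 0 of 17 passed by limma, against 1.18% of all genes, and 1 was lower at an unadjusted p under 0.05. Igf1, the other ligand of the IGF1 receptor, was listed at a mean of 0.00678 TPM in 96h, and stood at 1.73 ± 0.25 in Gastruloid (SD, n = 3), 9.97 ± 1.10 in TLSMG and 0.274 ± 0.192 in TLSMGC. Igf1r, the receptor, was at 41.9 ± 3.1 TPM in TLSMG and 27.0 ± 2.0 in TLSMGC (-0.62, adjusted p = 0.000634). Igf2r, the clearance receptor for IGF2 and itself imprinted, was at 57.4 ± 3.3 TPM in TLSMG and 38.0 ± 2.4 in TLSMGC (-0.58, adjusted p = 0.00100). Foxo1 and Pik3r1 fell by 1.54 and 1.62 on the log2(TPM + 1) scale in the same comparison (adjusted p = 4.94e-07 and 5.32e-07).

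Non-imprinted relatives of the 10 genes were compared as well, with Igf1 counted here again. Of 7 tested paralogues, 4 were higher and 2 lower in TLSMGC than in TLSMG, against 10.4% and 30.5% of all genes. Cdkn1a, a relative of Cdkn1c that also inhibits cyclin-dependent kinases, rose from 12.99 ± 1.72 to 72.0 ± 9.4 TPM (SD, n = 3), opposite to Cdkn1c (2.38, adjusted p = 3.71e-05). Grb7, a relative of Grb10, rose from 10.3 ± 0.363 to 48.7 ± 4.8 TPM (2.13, adjusted p = 2.17e-09). Phlda3, a relative of Phlda2, rose with it, from 18.6 ± 1.8 to 71.3 ± 11.1 TPM (1.88, adjusted p = 4.32e-07), but stood at 86.4 ± 6.6 with LDN, where Phlda2 fell. Among 7 genes that maintain imprints, 5 were lower and 0 higher in TLSMGC than in TLSMG by limma (6 and 0 at an unadjusted p under 0.05), against 30.5% and 10.4% of all genes. After median-of-ratios scaling 3 were lower, against 18.8%. Zfp57 went from 12.6 ± 2.1 to 4.35 ± 0.54 TPM (-1.34, adjusted p = 0.000968).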

How the data were processed

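Bulk RNA-seq of 15 libraries was analysed, 3 in each of 5 groups taken from the titles. Per the submitters' processing notes, cutadapt 2.4, STAR 2.7.3a and StringTie 2.0 were used. The deposited TPM (transcript level scaled to 1 library total) was read from the StringTie gene abundance table of each library, per the file headers. The deposited FPKM values, from the same tables, differ from it by a constant within a library. The deposited coverage (mean read depth over exons) served for depth, which was the coverage per FPKM of 1140 genes with 1 annotated transcript. Lines that repeated a gene identifier (7 to 13 per table) were summed. No counts were used, so no counting intervals or detection floors were computed. Of 54446 identifiers, 53499 had the same position in GENCODE M21.

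limma 3.58.1 in R 4.3.3 fitted 1 model of 5 groups to log2(TPM + 1), with a trend in the prior variance, for 14290 genes whose mean TPM reached 1. P-values are two-sided and adjusted by the Benjamini-Hochberg method over all genes of a comparison, with a threshold of 0.05. The script was tested on simulated data. Errors are SE of log2 differences, or SD over n = 3. Folds are ratios of mean TPM. Alternatives were another pseudocount (0.1), a minimum of 5 TPM or no filter, FPKM, median-of-ratios scaling, the 2 groups alone, a replicate block, a correction for GC content and length, and each library left out. Depth-scaled coverage and the sum of Igf2 and Gm49394 were added after seeing the data.

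The members and lists were chosen with earlier results of these data known. By the naming rule, all 10 genes are named, from each other list up to 3 called genes with the largest difference per comparison, and per gene the 3 with the highest correlation. For Meg3, 1 of these 3 is not reported here. Asb4, Igf1r, Igf2r, Kcnq1ot1, Phlda3, Ppp1r9a, Sgce and Zfp57 were partly named after their values were seen. The single-cell samples were not analysed here.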

Additional observations from a re-analysis of the deposited data

Results flagged for a closer look

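Peg3 and Peg10 moved in opposite directions from the same 96h libraries in TLSMG and TLSMGC, 2 of the 3 Matrigel groups. In TLSMGCL all libraries were below all 96h libraries for both genes. Peg3 rose from 96h in TLSMG (1.78 on the log2(TPM + 1) scale) and fell in TLSMGC (-1.78), and all 3 libraries of each group moved that way. Peg10 rose by 1.72 in TLSMG and changed by -1.17 in TLSMGC, again in all 3 libraries of each. The difference between the groups, tested directly as TLSMGC against TLSMG in limma, was -3.56 for Peg3 (adjusted p = 6.48e-09) and -2.89 for Peg10 (adjusted p = 4.77e-07).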

How the results depend on the processing

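Of 60 differences (10 genes in 6 comparisons), 41 passed, and 35 of these kept direction and call under every alternative. Under LDN, the genes that passed went from 2 to 1 with depth-scaled coverage, with no filter beyond a TPM above 0 and in a fit of only the groups compared, and to 1 to 3 when 1 library was left out. Over all genes, LDN passed 169, against 278 with the GC and length correction, 42 in a fit of only these groups and 56 to 198 with 1 library left out, 56 without TLSMGC replicate 2, 70 without TLSMGCL replicate 1 and 78 without TLSMGCL replicate 3. TLSMG against Gastruloid passed 5622, against 3248 with the GC and length correction. The causes were not tested.

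Signs changed mainly for differences close to 0. H19 between TLSMG and Gastruloid (0.0074) was -0.0859 with FPKM, -0.00385 with depth-scaled coverage, -0.108 with median-of-ratios scaling and -0.110 to 0.0959 with 1 library left out. H19 under LDN (-0.0095) was 0.000664 with the GC and length correction, 0.00785 with depth-scaled coverage, 0.00892 with median-of-ratios scaling, 0.0066 with a pseudocount of 0.1 and -0.134 to 0.110 with 1 left out. Mest under LDN (-0.0353) was 0.00107 with the GC and length correction, 0.00398 with median-of-ratios scaling and -0.127 to 0.0557 with 1 left out. Igf2 under LDN (0.47) was -0.0711 to 1.03, the lowest without TLSMGCL replicate 3. Meg3 between TLSMGC and TLSMG (-0.46) was 0.0085 with the GC and length correction. The causes were not tested.

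Replicate numbers did not pair the libraries: over 18 same-numbered pairs, r of the deviations ran from -0.181 to 0.104, with 1 over 0.1. With a replicate block, 8, 10, 7, 7, 9 and 2 of the 10 genes passed in the order given in the results, against 8, 9, 7, 6, 9 and 2 without it.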
